A study of Mus musculus with 72 samples.

Results

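The liver transcriptome of germ-free wild-type mice was compared between early night and early day. The comparison took the 3 libraries labelled WT GF ZT14 against the 3 labelled WT GF ZT2, that is 6 of the 72 libraries of the series, chosen by their labels alone. ZT is zeitgeber time in hours from lights on, so that ZT2 fell 2 h into the light and ZT14 lay 2 h into the dark of a cycle with equal light and dark. Both groups were male C57BL/6 mice of the genotype Bmal1 fl/fl, which carried loxP-flanked Bmal1 without Cre and are called WT. Both groups were germ free (GF), without microbes, and were fed autoclaved chow freely in isolators. Each library came from the whole liver of a different mouse, so lower RNA of a cell type through fewer such cells or through less RNA per cell cannot be told apart. The series also held GF mice in which an Albumin-driven Cre removed Bmal1 in hepatocytes (LKO), and specific pathogen-free (SPF) mice of either genotype, with 3 libraries at each of 6 ZT.

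The liver clock is a loop of transcription. BMAL1 (gene Arntl) pairs with CLOCK or NPAS2 and drives genes through E-box sequences, among them the Per and Cry repressors that then shut the pair down. REV-ERBs (Nr1d1, Nr1d2) repress and RORs activate Arntl and Npas2, and the PAR bZIP factors DBP, TEF and HLF pass the rhythm on through D-box sequences to genes of lipid, sugar, bile acid and drug metabolism.

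The 6 libraries held 18341726 to 20048880 counts, with 18341726 to 20048880 at ZT2 and 18380656 to 19421174 at ZT14. Levels are given as CPM (counts scaled to a common library size, with TMM factors), and the test was edgeR's quasi-likelihood test over all 18 GF WT libraries with Benjamini-Hochberg adjustment at 0.05. The hepatocyte marker list summed to 143167 to 195410 CPM at ZT2 and 156576 to 179031 CPM at ZT14, and all 11 of its members were detected. Transcripts of the mitochondrial chromosome took 5.97% to 8.41% of counts. ZT14 replicate 3 stood apart from the other 2 mice of its time in several genes named below, among them Hspa1b, Onecut1 and Socs2. The library labelled GF WT ZT6 replicate 3, which entered the estimate of the spread but not the contrast, went against its label in clock genes, and without it 1714 genes were called in place of the 1335 given next.

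Of 13203 genes tested, 1335 (10.1%) differed between ZT14 and ZT2. At ZT14, 670 genes (5.07%) were higher and 665 (5.04%) were lower, and 1231 of the 1335 were protein coding. With upper-quartile scaling, which moved the median log2 fold change of all genes from -0.01 to -0.08, the split was 501 higher and 879 lower. On the log2 scale 437 of the called genes changed by 1 or more, 199 higher and 238 lower. The CPM ranges of both groups lay apart in 1310 of the 1335 called genes and in 28.2% of all genes tested. The number called fell with any library of the contrast left out, to 1127, 1155 and 873 without ZT2 replicates 1, 2 and 3 and to 787, 828 and 879 without ZT14 replicates 1, 2 and 3.

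**Figure D1:**
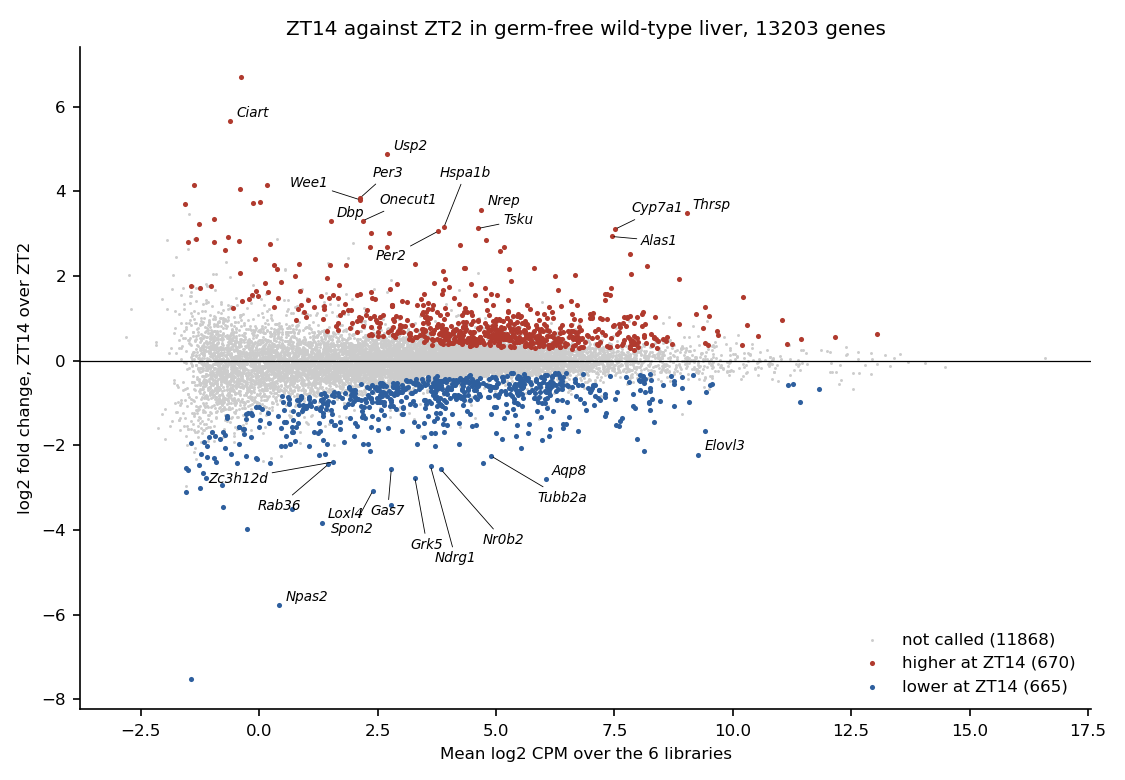
Each point is a gene, with its mean log2 CPM over the 6 libraries on the x axis and its log2 fold change of ZT14 over ZT2 on the y axis; the 670 genes called higher are red, the 665 called lower are blue and the others are grey. Clock genes lie far from 0 on both sides, with Usp2 at 4.88 and Npas2 at -5.77, and the outermost points are the non-coding Gm30906 (-7.52) and the unclassified Gm45819 (6.70), whose fitted changes rest on few counts. Gm30906 had no count at ZT14, so its fitted value depends on the prior count of the fit and is no estimate of a fold. Thrsp is far above and Elovl3 far below 0 among abundant transcripts.

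The 2 times are points on a daily curve, and most called genes peaked or dipped at one of them. Of the 670 genes higher at ZT14, 471 (70.3%) had their highest mean of the 6 ZT at ZT14, 120 at ZT10 and 68 at ZT18, and 556 (83.0%) had their lowest mean at ZT2. Of the 665 lower at ZT14, 436 (65.6%) had their highest mean at ZT2 and 127 at ZT22, and 462 (69.5%) had their lowest at ZT14 and 158 at ZT10. These counts describe genes chosen by the contrast and carry no test.

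Promoter windows are shown for 3 clock genes that rose at ZT14, because they hold the elements through which the loop and its output factors act. The windows are the 250 bases before the start site in RefSeq on GRCm38.p6, 5′ to 3′ on the gene's strand. Capitals mark the E-box CACGTG in Ciart and Tef and the D-box TTANGTAA, on either strand, in Per3. The windows lie at chr3:95882229-95882478 on the minus strand (Ciart), chr15:81802423-81802672 on the plus strand (Tef) and chr4:151044666-151044915 on the minus strand (Per3).
Ciart: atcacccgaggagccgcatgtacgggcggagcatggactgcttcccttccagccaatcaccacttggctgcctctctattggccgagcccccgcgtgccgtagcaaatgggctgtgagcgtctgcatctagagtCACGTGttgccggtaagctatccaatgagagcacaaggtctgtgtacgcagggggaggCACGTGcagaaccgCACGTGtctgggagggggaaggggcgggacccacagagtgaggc
Tef: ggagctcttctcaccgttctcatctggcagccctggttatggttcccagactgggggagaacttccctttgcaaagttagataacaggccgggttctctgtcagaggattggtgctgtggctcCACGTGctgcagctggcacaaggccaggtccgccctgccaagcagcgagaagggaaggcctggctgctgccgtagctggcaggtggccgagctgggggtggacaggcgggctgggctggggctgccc
Per3: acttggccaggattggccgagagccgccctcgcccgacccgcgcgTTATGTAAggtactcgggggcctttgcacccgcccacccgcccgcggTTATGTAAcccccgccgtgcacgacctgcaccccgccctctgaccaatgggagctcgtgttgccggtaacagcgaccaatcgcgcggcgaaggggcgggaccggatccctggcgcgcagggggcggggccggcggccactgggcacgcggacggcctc

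The Ciart window held 3 E-boxes, at 116, 58 and 44 bases before the start, the Tef window held 1 at 127 bases and the Per3 window held 2 D-boxes at 205 and 158 bases. An E-box stood in such a window of 6.86% of the 27025 genes with a window, a D-box in 2.44% and the element AGGTCA of RORs and REV-ERBs in 15.8%. Among the clock, clock output and largest-change genes named here, 3 of 11 called higher and 2 of 10 called lower, Aqp8 and Nr0b2, held an E-box, and none of either held AGGTCA. Of the 8 named genes with a window that were not called, 3 held an E-box and 4 held AGGTCA. A match of letters is a description and does not show that a factor was bound.

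Among the activators, Npas2 and Arntl were lower at ZT14 than at ZT2. Npas2 (chromosome 1, 39193731 to 39363236 of GRCm38) had 7.69, 9.78 and 10.2 CPM at ZT2 and 0.307, 0.174 and 0 CPM at ZT14, a change of -5.77 on the log2 scale (standard error 0.46, adjusted p = 7.62e-07, edgeR), the largest decrease among protein-coding genes called. Arntl (chromosome 7, 113207465 to 113314126) had 29.8, 26.4 and 33.2 CPM at ZT2 and 9.65, 10.9 and 10.7 CPM at ZT14, a change of -1.52 (standard error 0.34, adjusted p = 0.00810, edgeR). Neither gene's groups overlapped. At ZT14 Arntl was already rising again from a mean of 0.607 CPM at ZT10 towards 36 at ZT22, whereas Npas2 stayed below 1 CPM on average from ZT6 to ZT18. Clock (-0.38, adjusted p = 0.105) and Rora (-0.69, adjusted p = 0.0690) did not pass the test by edgeR.

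Of the 10 repressors 4 were called higher and 1 lower at ZT14, against 5.07% and 5.04% of all genes tested, and 5 did not pass the test. Ciart, a repressor of the BMAL1 complex whose promoter held 3 E-boxes, had 3, 0 and 0 counts at ZT2 against 37, 60 and 69 at ZT14. The ratio of the summed counts was 57.2 (95% exact interval 19.2 to 280, for counting error only), and edgeR called it (adjusted p = 1.32e-05). Per3 rose from 0.912, 1.5 and 1.35 CPM to 20.2, 16.6 and 18.0 CPM, a change of 3.85 on the log2 scale (standard error 0.28, adjusted p = 3.59e-07, edgeR). Per2 rose from 5.47, 4.65 and 5.85 CPM to 46.3, 45.9 and 40.5 CPM, a change of 3.05 (standard error 0.24, adjusted p = 6.17e-07, edgeR). In these 3 genes every ZT14 mouse was above every ZT2 mouse, and Per3 and Ciart were past their highest mean, which lay at ZT10, while Per2 was at its highest.

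Per1 was less uniform, with 16.3, 11.9 and 8.60 CPM at ZT2 and 40.6, 40.8 and 19.3 CPM at ZT14, and missed the threshold (1.45, adjusted p = 0.132, edgeR) although its groups did not overlap. Cry1 (1.0, adjusted p = 0.139), Cry2 (0.50, adjusted p = 0.0550), Nr1d2 (0.43, adjusted p = 0.0964) and Bhlhe41 (1.01, adjusted p = 0.295) were not called by edgeR either. Bhlhe40 was called at 0.91 (adjusted p = 0.00879), but not without ZT2 replicate 3 (0.73, adjusted p = 0.0515).

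Nr1d1, which encodes REV-ERB alpha, was the repressor that fell. It had 16.4, 28.8 and 22.1 CPM at ZT2 and 6.58, 5.62 and 5.01 CPM at ZT14, a change of -1.97 on the log2 scale (standard error 0.53, adjusted p = 0.0248, edgeR). The groups did not overlap, but the call was lost without ZT2 replicate 2 (-1.75, adjusted p = 0.0731) and 3 (-1.98, 0.0561) and without ZT14 replicate 1 (-2.08, adjusted p = 0.0666), 2 (-1.95, 0.0830) and 3 (-1.88, 0.0833).

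All 3 PAR bZIP activators were higher at ZT14, and their antagonist Nfil3 was not called (-0.39, adjusted p = 0.347, edgeR). Dbp had 0.977, 1.07 and 0.878 CPM at ZT2 and 12.9, 8.0 and 8.01 CPM at ZT14 (log2 fold change 3.29, standard error 0.45, adjusted p = 0.000189, edgeR), already far below its mean of 79.7 CPM at ZT10. Tef had 46.8, 41.9 and 39.4 CPM at ZT2 and 167, 177 and 168 CPM at ZT14 (2.00, standard error 0.12, adjusted p = 3.13e-08, edgeR), the smallest relative error of the 3. Hlf rose by 1.05 (standard error 0.17, adjusted p = 0.000623, edgeR). A gene can thus have passed its peak by ZT14 and still lie well above its level at ZT2.

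**Figure D2:**
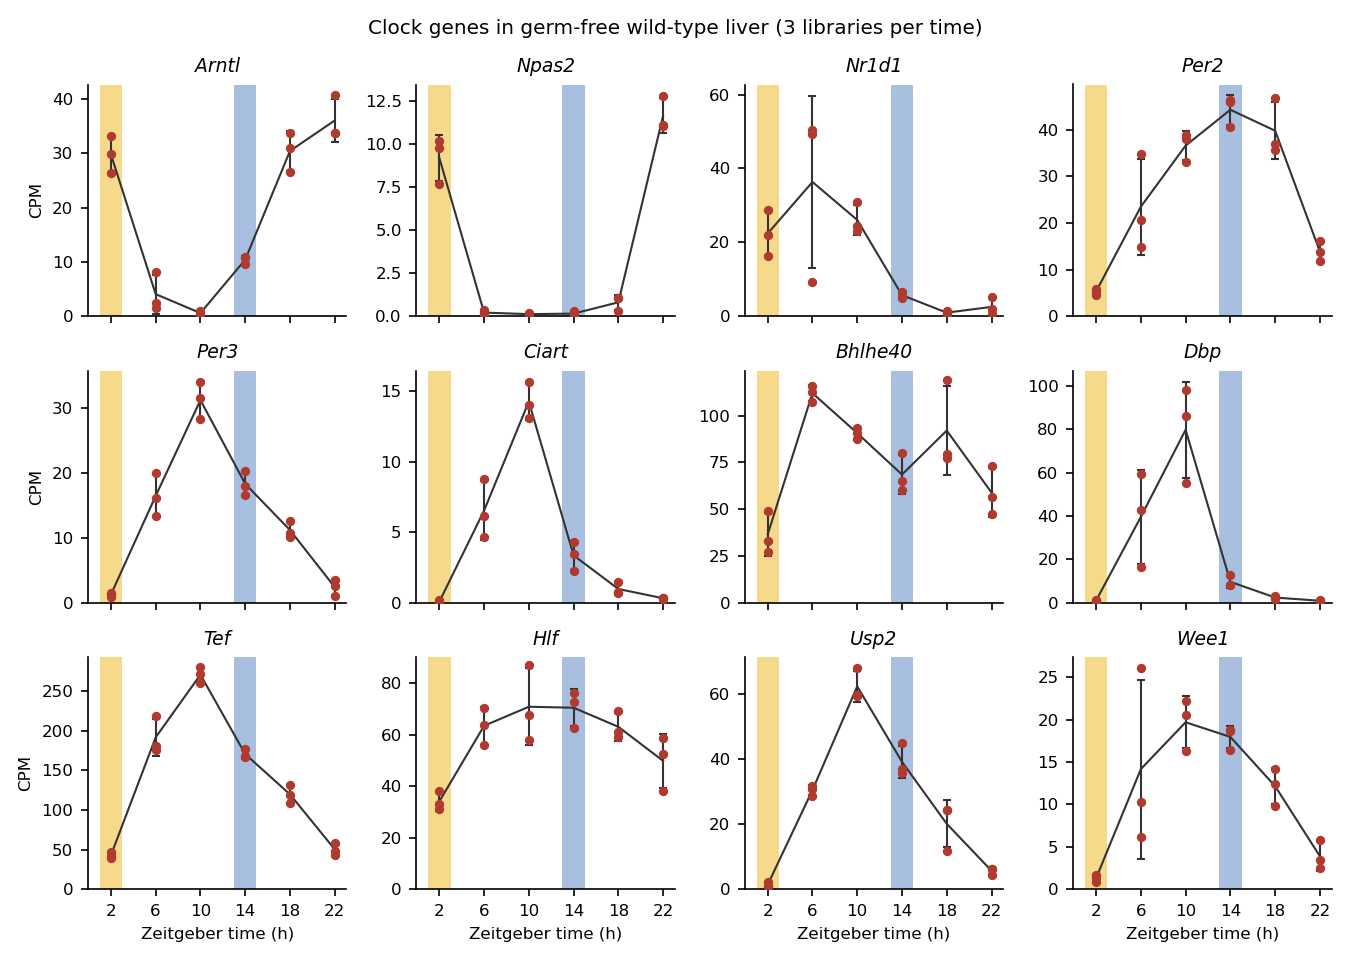
CPM of 12 clock and clock output genes is plotted against zeitgeber time in GF WT mice, with a point for each library and a line through the means of 3 libraries with SD bars; yellow marks ZT2 and blue marks ZT14. Arntl, Npas2 and Nr1d1 are lower at ZT14 than at ZT2, the other 9 genes are higher, and Per3, Ciart, Dbp, Tef, Usp2 and Wee1 peak at ZT10, before ZT14.

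Of 10 genes known as outputs of the liver clock, 6 were higher and 2 lower, beside 5.07% and 5.04% of all genes. Usp2, a ubiquitin-specific protease, had 2.22, 0.962 and 0.878 CPM at ZT2 and 35.8, 44.9 and 37 CPM at ZT14 (log2 fold change 4.88, standard error 0.31, adjusted p = 4.03e-08, edgeR), the largest rise among the protein-coding genes that reached a mean log2 CPM of 1. Wee1, a kinase that holds cells before mitosis, rose from 1.30, 1.66 and 0.878 to 18.7, 16.5 and 18.8 CPM (3.80, standard error 0.45, adjusted p = 5.09e-05, edgeR). Elovl3, a fatty acid elongase, was the abundant output that fell, from 1782, 1386 and 1388 to 360, 333 and 286 CPM (-2.22, standard error 0.26, adjusted p = 4.95e-05, edgeR). Avpr1a, the vasopressin receptor of hepatocytes, fell by 1.36 (adjusted p = 0.000699, edgeR). The median of the 10 genes was 2.26 against -0.01 over all genes tested, and each alternative with 1 library left out kept 6 higher and 2 lower.

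Beyond the clock lists, the largest rises among called protein-coding genes that reached a mean log2 CPM of 1 were those of Nrep (3.57), Thrsp (3.47), Onecut1 (3.30), Hspa1b (3.15), Tsku (3.12) and Cyp7a1 (3.10). Tsku, a secreted liver protein, had 9.45, 9.88 and 8.95 CPM at ZT2 and 68.4, 78.6 and 99.5 CPM at ZT14 (standard error 0.61, adjusted p = 0.00334, edgeR). Nrep had 6.51, 10.8 and 8.95 CPM at ZT2 and 74.6, 78.9 and 160 CPM at ZT14 (standard error 0.64, adjusted p = 0.00168, edgeR). Onecut1, a hepatocyte transcription factor, had 1.17, 2.03 and 2.75 CPM at ZT2 and 10.3, 5.04 and 44.3 CPM at ZT14, so that replicate 3 set the size of its change. The call of Onecut1 (adjusted p = 0.0235, edgeR) was lost without ZT14 replicate 3 (1.93, adjusted p = 0.178) and without ZT2 replicate 1 (3.04, adjusted p = 0.0848), 2 (3.32, 0.0681) and 3 (3.60, 0.0610).

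At the same level or above, the largest falls were those of Loxl4 (-3.83), Spon2 (-3.08), Aqp8 (-2.81), Grk5 (-2.77), Nr0b2 (-2.56), Gas7 (-2.56), Ndrg1 (-2.50), Rab36 (-2.45), Zc3h12d (-2.40) and Tubb2a (-2.26). Loxl4, a lysyl oxidase of the matrix, had 5.67, 12.5 and 12.2 CPM at ZT2 and 0.615, 0.754 and 0.751 CPM at ZT14 (standard error 0.39, adjusted p = 1.27e-05, edgeR). Aqp8, a water channel of hepatocytes, had 182, 213 and 201 CPM at ZT2 and 28.2, 28.5 and 28.3 CPM at ZT14, with SDs of 15.3 and 0.165 (standard error 0.24, adjusted p = 1.66e-06, edgeR). Grk5, a kinase of G protein-coupled receptors, had 23, 27.2 and 35.9 CPM at ZT2 and 4.18, 4.87 and 3.57 CPM at ZT14 (standard error 0.23, adjusted p = 1.39e-06, edgeR). The 10 genes were chosen among those whose ranges lay apart, so their separation is no result.

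Genes of fat synthesis rose in part. Of 18 members of the fatty acid list, 4 were higher and 2 lower, beside 5.07% and 5.04% of all genes, with a median of 0.49, and 2 were higher without ZT2 replicate 1 or 3. Thrsp, a regulator of lipogenesis, had 149, 178 and 206 CPM at ZT2 and 1980, 1728 and 2220 CPM at ZT14 (log2 fold change 3.47, standard error 0.41, adjusted p = 4.95e-05, edgeR). The elongase Elovl6 rose by 1.09 (adjusted p = 0.0371, edgeR), a call lost without ZT2 replicates 1, 2 or 3 or ZT14 replicates 1 or 2 (adjusted p 0.0541 to 0.129). Acss2, which makes acetyl-CoA from acetate, fell from 468, 468 and 524 to 255, 249 and 274 CPM (-0.91, standard error 0.16, adjusted p = 0.00131, edgeR). In the separate list of triglyceride synthesis and lipolysis, 2 of 17 genes were higher and 1 lower, beside 5.07% and 5.04% of all genes. The lower gene was Plin2, the coat protein of lipid droplets, which fell by 0.97 (adjusted p = 0.00156, edgeR). Mgll rose by 0.98 (adjusted p = 0.00355) and Dgat2 by 0.57 (adjusted p = 0.0201), both by edgeR. The call of Dgat2 was lost under 5 of 14 alternatives.

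Within cholesterol synthesis and uptake, 2 of 25 genes were higher and 3 lower, with a median of -0.18, beside 5.07% and 5.04% of all genes. With 1 library left out 1 to 4 were higher and 2 to 3 lower. Pmvk, which phosphorylates phosphomevalonate, had 122, 125 and 113 CPM at ZT2 and 73.9, 71.5 and 79.4 CPM at ZT14 (log2 fold change -0.68, standard error 0.12, adjusted p = 0.00156, edgeR), a call lost with all 72 libraries in the fit (adjusted p = 0.0964). Sc5d, a desaturase of the late steps, also fell (-0.57, adjusted p = 0.00517, edgeR).

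The few bile acid genes that were called moved in both directions. Cyp7a1, the rate-limiting enzyme of bile acid synthesis (chromosome 4, 6265612 to 6275633), had 35.2, 78.1 and 111 CPM at ZT2 and 697, 516 and 718 CPM at ZT14 (log2 fold change 3.10, standard error 0.63, adjusted p = 0.00413, edgeR), and it was the only member called of 12 tested, a share of 8.3% beside 10.1% of all genes. Nr0b2, which encodes SHP, a repressor of Cyp7a1, had 67.3, 46 and 16.3 CPM at ZT2 and 10.7, 6.55 and 4.63 CPM at ZT14 (-2.56, standard error 0.49, adjusted p = 0.00282, edgeR). The bile salt export pump Abcb11 fell by 0.99 (adjusted p = 0.0128, edgeR), which was lost without ZT14 replicate 1 (-0.92, adjusted p = 0.0594).

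Carbohydrate genes that were called were mostly higher at ZT14. Gys2, liver glycogen synthase, rose from 142, 111 and 132 to 540, 530 and 515 CPM (log2 fold change 2.04, standard error 0.12, adjusted p = 3.13e-08, edgeR). Ppp1r3c, a glycogen-targeting subunit of protein phosphatase 1, fell from 197, 96.2 and 145 to 29.1, 48.5 and 64.8 CPM (-1.62, standard error 0.29, adjusted p = 0.00168, edgeR). The groups did not overlap in either gene, and these glycogen genes moved in opposite directions.

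Of 17 genes of glucose uptake and glycolysis 4 were higher and none lower, beside 5.07% and 5.04% of all genes. With 1 library left out the number higher was 0 to 3. Pfkfb3, a bifunctional enzyme that sets the rate of glycolysis through its allosteric activator, had 16.4, 11 and 6.08 CPM at ZT2 and 50.6, 42.2 and 58.4 CPM at ZT14 (2.18, standard error 0.57, adjusted p = 0.0215, edgeR). The groups of Pfkfb3 lay apart, but its call was lost without ZT2 replicate 2 or 3 or ZT14 replicate 1 or 3 (adjusted p 0.0518 to 0.0939). Of 15 gluconeogenesis genes 3 were higher, beside 5.07% of all genes, and none lower. Slc37a4, the glucose-6-phosphate transporter, rose by 1.02 (standard error 0.15, adjusted p = 0.000350, edgeR) and Gpt2, a mitochondrial alanine aminotransferase, by 0.85 (adjusted p = 0.00121, edgeR).

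**Figure D3:**
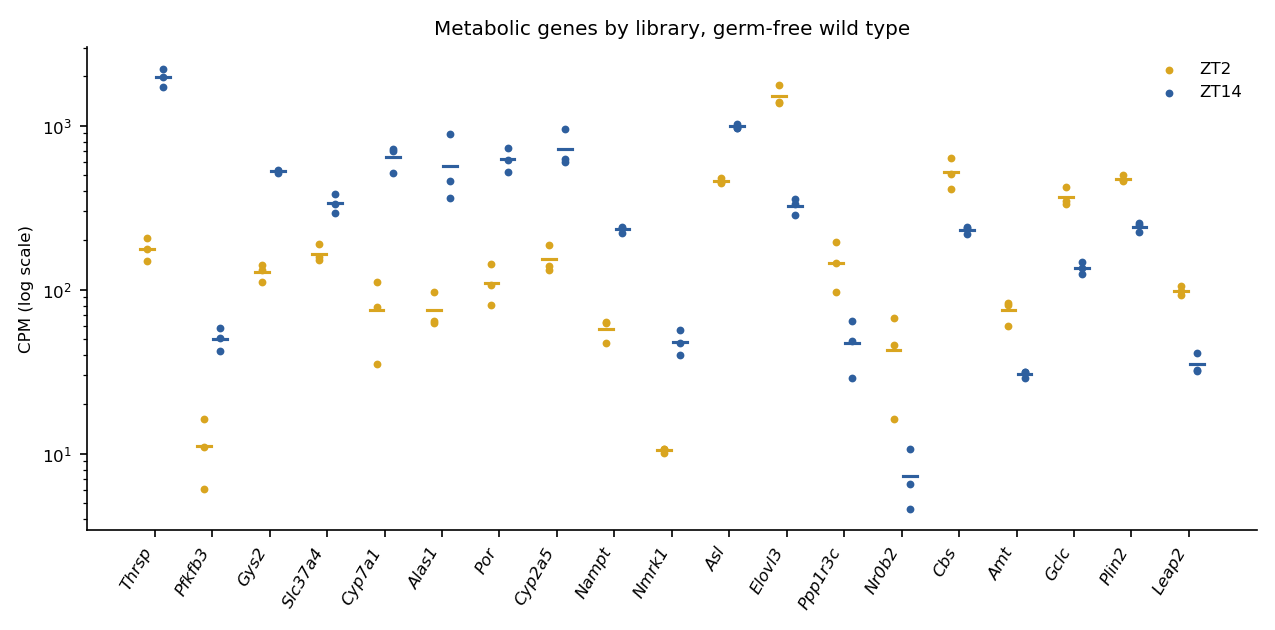
CPM on a log axis is shown for 19 metabolic genes in the 3 ZT2 libraries (yellow) and the 3 ZT14 libraries (blue) of GF WT mice, with a short line at each mean. The groups lie apart in each of the 19 genes, from Thrsp and Cyp7a1 (higher at ZT14) to Nr0b2 and Elovl3 (lower at ZT14). The genes were picked among called genes, of which 1310 of 1335 have ranges apart, so this separation is no result.

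Xenobiotic metabolism had 7 members higher and 2 lower of 26, beside 5.07% and 5.04% of all genes, and 4 higher without ZT2 replicate 2. Por, the reductase that supplies electrons to microsomal cytochromes P450, had 80.3, 143 and 107 CPM at ZT2 and 735, 525 and 615 CPM at ZT14 (log2 fold change 2.51, standard error 0.24, adjusted p = 4.29e-06, edgeR). Alas1, the first and rate-limiting enzyme of heme synthesis, went from 62.5, 97.1 and 64.8 to 361, 459 and 894 CPM (2.93, standard error 0.42, adjusted p = 0.000296, edgeR), and its highest mouse was ZT14 replicate 3. Cyp2a5, a coumarin hydroxylase with near-identical relatives whose reads could be split, rose by 2.24 (standard error 0.25, adjusted p = 2.79e-05, edgeR). These genes for a cytochrome P450, for electron supply and for heme synthesis were all higher in the early night, and in each the groups did not overlap.

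In NAD synthesis the genes called higher were Nampt and Nmrk1, whose enzymes start the salvage routes from nicotinamide and from nicotinamide riboside. Nampt rose from 62.5, 47.2 and 63.7 to 221, 237 and 242 CPM (2.01, standard error 0.31, adjusted p = 0.000523, edgeR). Nmrk1 rose from 10.8, 10.1 and 10.7 to 47.4, 39.9 and 56.4 CPM (2.19, standard error 0.32, adjusted p = 0.000343, edgeR). Of the 13 genes of the list 2 were higher and 1, Aox1, was lower (-0.69, adjusted p = 0.0170, edgeR), beside 5.07% and 5.04% of all genes. The call of Aox1 was lost without ZT2 replicate 3 or ZT14 replicate 1 or 3 (adjusted p 0.0569 to 0.0791).

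Of 33 amino acid genes 5 were higher and 6 lower, beside 5.07% and 5.04% of all genes. With 1 library left out 3 to 5 were higher, and the 6 lower became 4, 4 and 3 without ZT2 replicates 1, 2 and 3 and 3, 1 and 3 without ZT14 replicates 1, 2 and 3. Asl, argininosuccinate lyase of the urea cycle, rose by 1.11 (standard error 0.16, adjusted p = 0.000236, edgeR). Amt, of the glycine cleavage system, fell by 1.28 (adjusted p = 0.000456, edgeR) and Cbs, of transsulfuration, by 1.16 (adjusted p = 0.00165, edgeR).

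The NRF2 and glutathione list had 5 members lower and none higher of 20, beside 5.04% and 5.07% of all genes. Only 1 was lower without ZT2 replicate 2 or ZT14 replicate 2 or 3, 2 without ZT2 replicate 3 and 3 without ZT14 replicate 1. Gclc, the catalytic subunit of glutamate-cysteine ligase, had 332, 346 and 423 CPM at ZT2 and 136, 147 and 125 CPM at ZT14 (-1.43, standard error 0.16, adjusted p = 2.24e-05, edgeR).

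Chaperone and ribosome assembly genes were called in 1 direction only. Of 21 heat shock chaperones 9 (42.9%) were higher and none lower against 5.07% of all genes called higher, with a median of 0.72, and all 21 fitted changes were positive with TMM scaling. Hspa1b, an inducible HSP70, had 6.45, 7.75 and 5.03 CPM at ZT2 and 76.2, 81.2 and 14.0 CPM at ZT14 (3.15, standard error 0.66, adjusted p = 0.00562, edgeR). Hsph1 had 209, 234 and 101 CPM at ZT14 against 72.1, 75.8 and 57.9 CPM at ZT2 (1.4, adjusted p = 0.00978, edgeR), a call lost without ZT14 replicate 2 (1.17, adjusted p = 0.0515). In both genes ZT14 replicate 3 was the lowest of its group and still above every ZT2 mouse. Hspa1b was also picked among genes whose ranges lay apart, so its separation is no result.

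The chaperone count moved with single libraries and with scaling. It was 8, 6 and 5 without ZT2 replicates 1, 2 and 3, 4, 3 and 12 without ZT14 replicates 1, 2 and 3, and 5 with upper-quartile scaling. Cirbp, a cold-inducible RNA-binding protein, fell from 16.7, 17.6 and 21 to 9.03, 7.48 and 10.8 CPM (-1.02, adjusted p = 0.00147, edgeR).

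Of 42 ribosome biogenesis genes 18 (42.9%) were higher and none lower, beside 5.07% and 5.04% of all genes, with a median of 0.50. Rrp12 rose most, from 3.13, 5.18 and 4.39 to 12.4, 13.6 and 15.4 CPM (1.70, standard error 0.35, adjusted p = 0.00517, edgeR), followed by Nop2 (1.21, adjusted p = 0.00244) and Nolc1 (1.19, adjusted p = 0.000623). With upper-quartile scaling 13 were called, without ZT2 replicates 1, 2 and 3 the number was 11, 17 and 10, and without ZT14 replicates 1, 2 and 3 it was 11, 13 and 9. The cytosolic ribosomal proteins did not follow, with none of 81 called and a median of -0.20.

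Among hormone-related genes, Fkbp5, a glucocorticoid-responsive co-chaperone, rose from 54, 25.6 and 16.6 to 124, 103 and 211 CPM (2.18, standard error 0.45, adjusted p = 0.00482, edgeR), the only member called of 14 (7.1%, beside 10.1% of all genes). Leap2, which encodes a hormone that opposes ghrelin, fell from 98.8, 105 and 92.6 to 32.5, 32.1 and 41.1 CPM (-1.49, standard error 0.27, adjusted p = 0.00188, edgeR). Of 14 growth hormone and IGF axis genes 1 was higher and 2 lower (21.4% called, beside 10.1% of all genes). Hsd3b5 fell from 397.9, 348.3 and 363.4 to 133, 118.5 and 182.6 CPM (-1.355, adjusted p = 0.00397, edgeR). The call of Hsd3b5 held under all 14 alternatives. Stat5b also fell (-0.85, adjusted p = 0.0131, edgeR), a call lost without ZT2 replicate 3 or ZT14 replicate 3 (adjusted p 0.0543 and 0.064). Socs2, a target of growth hormone and the higher gene, had 2.22, 4.17 and 3.51 CPM at ZT2 and 9.34, 8.87 and 62.4 CPM at ZT14. Its change of 3.01 (adjusted p = 0.0264, edgeR) was 1.45 without ZT14 replicate 3 (adjusted p = 0.247), and the call was lost without ZT2 replicates 1, 2 or 3 as well (adjusted p 0.0597 to 0.0902).

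**Figure D4:**
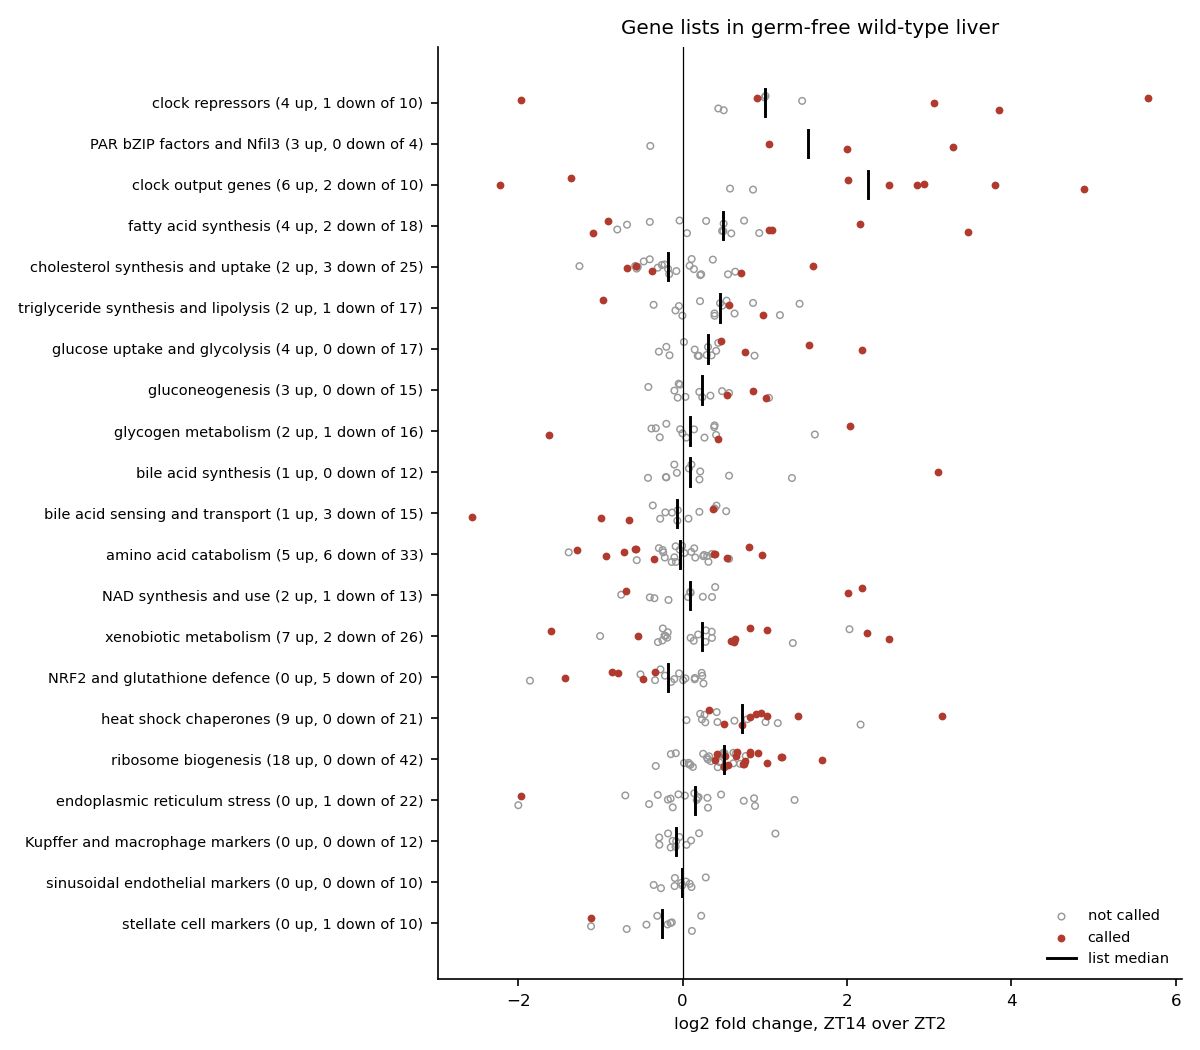
Each row is a gene list and each point a member's log2 fold change of ZT14 over ZT2 in GF WT mice, filled when called and open when not, with a black bar at the list median; the labels give the numbers called up and down. Heat shock chaperones and ribosome biogenesis genes lie mostly to the right of 0, and the clock repressors run from -1.97 to 5.66.

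Few markers of other cells passed the test. None of 12 Kupffer and macrophage markers, 10 sinusoidal endothelial markers, 5 cholangiocyte, 6 lymphocyte, 2 neutrophil, 5 erythroid or 3 adipocyte markers that were tested passed edgeR's test. Summed Kupffer markers lay at 412 to 503 CPM at ZT2 and 351 to 527 CPM at ZT14. Of 10 stellate cell markers Col3a1 was lower (-1.11, adjusted p = 0.00667, edgeR), at 29.1, 32.3 and 15.6 CPM against 12, 11.9 and 11.7 CPM, and the summed list ran from 457 to 492 CPM at ZT2 and from 353 to 493 CPM at ZT14. Of the pancreatic acinar list Cela1 fell (-0.92, adjusted p = 0.00598, edgeR), while Prss2, Cpa1, Ctrb1 and Cel had no count in any of the 6 libraries. Neutrophil granule genes Ngp, Camp, Ltf and Mpo were also without counts. The part of these cells in the changes given above was not tested.

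The same contrast was then set beside that of GF LKO mice, to ask which changes differed when hepatocytes lacked Bmal1. In GF LKO mice 1780 of 13494 genes (13.2%) were called between ZT14 and ZT2. The genes called in both genotypes numbered 543, which is 40.7% of the WT and 30.5% of the LKO calls, and 529 of them had the same direction. Arntl, the targeted gene, had 11, 9.72 and 12.7 CPM at ZT2 and 7.04, 9.96 and 9.0 CPM at ZT14 in GF LKO mice, a change of -0.35 (adjusted p = 0.178, edgeR). The counts do not separate the deleted part of the gene from the rest.

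The difference of the changes was itself significant by edgeR for 149 of 13806 genes (1.08%). Of the 148 of these with both changes fitted, 124 had the larger change in WT mice and 84 had changes of opposite sign. Npas2 differed most among named genes, by -5.31 (standard error 0.49, adjusted p = 3.00e-08), since it stayed at 32.7 ± 0.88 CPM at ZT2 and 23.5 ± 4.8 CPM at ZT14 in GF LKO mice (SD, n = 3, edgeR's adjusted p). Per3 differed by 3.81 (standard error 0.37, adjusted p = 8.80e-08, edgeR), with 3.27 and 3.34 CPM on average in GF LKO mice. Nr1d1 turned its direction, from -1.97 in WT to 1.4 in LKO mice, a difference of -3.36 (standard error 0.72, adjusted p = 0.0115, edgeR).

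Per2 and Usp2 still rose in GF LKO mice, but less. Per2 changed by 1.22 there (adjusted p = 0.000277) against 3.05, and Usp2 by 2.38 (adjusted p = 0.000235) against 4.88, with differences of 1.84 (adjusted p = 0.000652) and 2.51 (adjusted p = 0.00528), all by edgeR. Tef (difference 1.69, adjusted p = 1.03e-08), Dbp (2.78, adjusted p = 0.00563), Wee1 (3.55, adjusted p = 8.05e-05) and Nrep (3.38, adjusted p = 0.0390) also differed by edgeR. The metabolic genes Gys2 (adjusted p = 1.03e-08), Elovl3 (0.000445), Thrsp (0.00118), Nmrk1 (0.00147), Cyp2a5 (0.00324), Nampt (0.0153) and Por (0.0159) had a larger change in WT than in LKO mice as well.

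Other changes had close values in GF LKO mice. Cyp7a1 changed by 2.66 (standard error 0.35) there against 3.10 in WT mice, a difference of 0.45 (standard error 0.72, adjusted p = 0.917, edgeR). Alas1 changed by 2.88 against 2.93, Tsku by 3.08 against 3.12, Nr0b2 by -2.24 against -2.56 and Hspa1b by 2.53 against 3.15, and none of these differences passed the test (adjusted p 0.872 to 0.994, edgeR). The standard errors of these differences, such as 0.71 for Tsku and 0.77 for Hspa1b, leave room for differences of more than 1 on the log2 scale. Of the ribosome biogenesis genes 22 were called higher in GF LKO mice and none of the list differed between genotypes by edgeR.

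**Figure D5:**
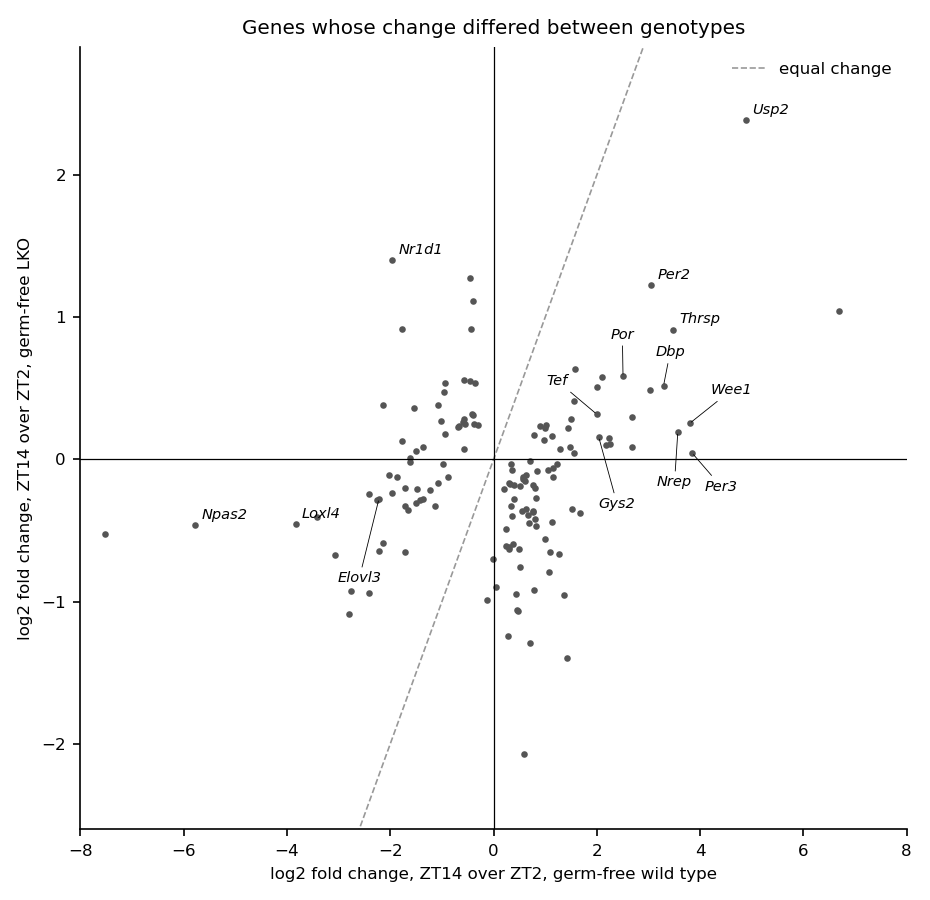
Each of the 148 points is a gene whose change differed between genotypes by edgeR, with its log2 fold change of ZT14 over ZT2 in GF WT mice on the x axis and in GF LKO mice on the y axis; the axes differ in scale and the dashed line marks equal change. The changes run from -7.52 (Gm30906) to 6.70 (Gm45819) in WT and from -2.07 to 2.38 in LKO mice, and Nr1d1 lies on opposite sides of 0 in the genotypes.

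SPF WT mice gave the contrast with microbes present. There 205 of 13907 genes (1.47%) were called, of which 151 were also called in GF WT mice, 73.7% of the SPF and 11.3% of the GF calls, all 151 in the same direction. The library labelled SPF WT ZT14 replicate 3 had 2.12 CPM of Arntl beside 15.8 and 19.5, and without it 383 genes were called. The number called is therefore no measure of how the states differ, and the difference itself was tested.

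By that test 5 of 14090 genes (0.0355%) differed between GF WT and SPF WT mice by edgeR. None was called with only the 12 libraries of the 4 groups or with all 72 in the fit (829 and 1172 genes at an unadjusted p under 0.05), 25 were called by DESeq2, and 1 was called without SPF WT ZT2 replicate 3 or without GF WT ZT14 replicate 3. Grk5 fell by 2.77 in GF and by 0.73 in SPF mice, where it had 6.76, 10.5 and 7.88 CPM at ZT2 and 5.37, 5.26 and 4.45 CPM at ZT14 (difference -2.03, standard error 0.34, adjusted p = 0.0127). Loxl4 fell by 3.83 and 1.03 (difference -2.79, standard error 0.54, adjusted p = 0.0463). Plce1, a phospholipase C, rose by 1.22 in GF and changed by 0.11 in SPF mice (difference 1.12, adjusted p = 0.00451), and Mcoln1, a lysosomal cation channel, by 0.91 and 0.17 (difference 0.75, adjusted p = 0.0138). Cbx2, a Polycomb protein, fell by 0.91 in GF mice, while its change in SPF mice was 0.83 (difference -1.73, adjusted p = 0.0138, all by edgeR).

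No clock gene was among the 5. The changes in SPF WT mice were 2.47 for Per2, 2.48 for Per3, 1.05 for Tef and -4.44 for Npas2, and the differences from GF mice had adjusted p from 0.211 to 0.907 by edgeR. Nr1d1 and Dbp in SPF mice rested on 1 library, since without ZT14 replicate 3 their changes went from -0.57 to -3.02 and from 2.32 to 0.18. A p that missed the threshold with 3 mice a group does not show that the changes were equal.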

How the data were processed

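Liver RNA of 72 mice, 3 per group and ZT, had been sequenced from stranded mRNA libraries. The values the authors deposited are raw counts per gene, made with STAR 2.6.1b on mm10 (GRCm38) and featureCounts 2.0.0 with Ensembl release 97. Groups came from the labels, and 0 columns were left unused. Members and lists were chosen with earlier results of these data known. The strand was not used in counting, so overlapping and antisense genes are uncertain.

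Counts were filtered (filterByExpr, minimum 10), scaled by TMM and tested with edgeR 4.0.16 (R 4.3.3) over the 18 GF WT libraries with 6 ZT means, or with the 18 libraries of the other group added for differences of changes. DESeq2 1.42.0 was the other tool. Figures used Python 3.11.15 and matplotlib 3.10.9.

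On simulated counts of 12499 genes edgeR recovered 15, 33, 47 and 47 of 50 genes changed by 1.5, 2, 3 and 4 fold in the ZT14 against ZT2 contrast, with 6 others called. For the difference between GF WT and GF LKO, on 12666 genes, it recovered 1, 27, 36 and 44 of 50, with 5 others. The spread between simulated libraries was set by a formula from the mean count and not fitted to the mice, so these numbers hold for that spread.

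Genes were named by rule. They were all clock genes of the first 3 lists, the 10 largest rises and 10 largest falls among called protein-coding genes whose CPM ranges lay apart and whose mean log2 CPM reached 1, up to 3 called members per direction of each other list, the 5 largest called differences between groups, and tissue markers. Text names a selection, and some genes are not reported here. Promoters came from RefSeq on GRCm38.p6. The labels name no litter or cage, so p-values measure the spread between the mice sampled.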

Additional observations from a re-analysis of the deposited data

Results flagged for a closer look

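Between GF WT and GF LKO mice 149 genes had a change from ZT2 to ZT14 that differed by edgeR's test of the difference itself. On the log2 scale, WT minus LKO, the difference was -5.31 for Npas2, 3.81 for Per3, 3.55 for Wee1, 3.38 for Nrep, -3.37 for Loxl4, -3.36 for Nr1d1, 2.78 for Dbp, 1.84 for Per2 and 1.69 for Tef. Between GF WT and SPF WT mice 5 genes differed, with GF minus SPF differences of -2.79 for Loxl4, -2.03 for Grk5, -1.73 for Cbx2, 1.12 for Plce1 and 0.75 for Mcoln1. Loxl4, Grk5, Plce1 and Mcoln1 passed both tests, with adjusted p of 4.79e-05, 0.000403, 0.00560 and 0.0314 by edgeR for WT minus LKO. Cbx2 did not pass that test (adjusted p = 0.857, edgeR).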

How the results depend on the processing

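Of 118 named genes called, 68 stayed called by edgeR or DESeq2 under all 14 alternatives, and none of the 118 changed direction. Leaving out 1 library of the contrast gave 787 to 1155 genes in place of 1335, and 353 to 407 in place of 437 with a log2 fold change of at least 1. The remaining alternatives gave 939 (only the 6 libraries) to 1878 (all 72 libraries), with 1607 by DESeq2 and 1714 with GF WT ZT6 replicate 3 left out.

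The 149 genes that differed between genotypes became 537 without the filter on low counts, 273 by DESeq2, 96 with all 72 libraries, 234 with GF WT ZT6 replicate 3 left out, and 97 to 160 with 1 library left out, 97 being without GF LKO ZT2 replicate 1. The 5 between GF WT and SPF WT became 293 without the filter, 25 by DESeq2, 0 with only the 12 libraries (829 at an unadjusted p under 0.05), 0 with all 72 (1172) and 1 to 10 with 1 library left out, 1 without SPF WT ZT2 replicate 3 or GF WT ZT14 replicate 3, 3 without GF WT ZT2 replicate 2 or GF WT ZT14 replicate 1, and 10 without SPF WT ZT14 replicate 3. The causes were not tested. The SPF WT count of 205 was 383 without SPF WT ZT14 replicate 3, an alternative chosen after seeing the data.

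The replicate numbers did not pair the mice (correlations of same-numbered deviations 0.02, 0.01 and 0.10), and a fit with the replicate number as a block called 1338, 143 and 6 genes for the 3 tests and 453 with a log2 fold change of at least 1. Fold changes of 1.5 were mostly missed in simulated data, whose spread was assumed and not fitted to the mice.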
